A study of Mus musculus with 6 samples.

Results

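The genes described are 10 genes known to respond to bone morphogenetic protein (BMP) signals, Msx1, Msx2, Id1, Id2, Id3, Id4, Smad6, Smad7, Gata2 and Bambi, in ovaries of E15.5 mouse embryos. They were chosen by name from the 18193 genes on the array, and every probe set whose platform annotation gave one of these symbols and no other gene was used, which came to 18 of 45037 probe sets. Ovaries with conditional removal of Dmrt1, which encodes a DM domain transcription factor (KO, 3 arrays), were set against wild-type ovaries of the same age (WT, 3 arrays). Both groups were whole ovaries, and neither the Cre line, the deleted cell type, the strain nor the number of animals per array is given in the sources used here. Nothing in the labels ties the replicates to separate animals, so p-values measure the spread between these arrays, which may be technical.

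BMP ligands bind paired type I and type II receptors, which phosphorylate SMAD1, SMAD5 and SMAD9. These join SMAD4, enter the nucleus and switch on a recurring set of targets. The MSX proteins are homeodomain repressors, the ID proteins are helix-loop-helix factors without a DNA-binding region that hold other helix-loop-helix factors off DNA, and SMAD6, SMAD7 and BAMBI feed back to dampen the signal. In the fetal mouse ovary, BMP signals and the Msx genes are known for their part in the entry of germ cells into meiosis.

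The arrays report GCRMA intensities, a scale on which dim probe sets are pressed towards a floor. The correlation between arrays was 0.994 to 0.996 inside a group and 0.988 to 0.991 across groups (log2 values, all probe sets). The median intensity of an array was 13.4, 13.1 and 13.3 units in KO, against 14.7, 14.7 and 14.4 in WT. The part of this offset in the differences of dim probe sets was not tested. Dmrt1 itself read 8.55, 5.97 and 7.46 intensity units in KO, against 8.47, 8.51 and 13.0 in WT, all near the floor, so its probe set does not check the genotype labels. KO replicate 1 stood apart in Xist, the RNA that silences an X chromosome in female cells, with a mean of log2 1.81 over its 3 probe sets, against 9.85 and 9.75 on the other KO arrays and 10.7 to 10.9 in WT. Values without that array are therefore given for the 10 genes through their brightest probe sets, for the calls in other genes, and for each further gene named whose difference it moved by over 1.5 times. A gene was tested when its probe set reached log2 4 (16 intensity units) on at least 3 of the 6 arrays, and was then counted through its brightest probe set. No germ cell or pregranulosa marker lay under that level on all arrays.

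Msx1 was the 1 gene of the 10 that passed the test. The homeobox gene read 422, 292 and 323 intensity units on KO replicates 1, 2 and 3, against 202, 176 and 214 in WT. Every KO array lay above every WT array, and KO replicate 1 was the highest. On the log2 scale the means were 8.42 ± 0.27 in KO and 7.62 ± 0.14 in WT (SD, n = 3 each), so Msx1 rose 1.74-fold in KO ovaries (log2 difference 0.80 ± 0.18, limma SE, 95% interval 0.40 to 1.19, limma adjusted p = 0.0247). Over the array, 1.28% of 11897 genes rose and 2.27% fell in the same test, while 12.3% lay higher and 11.4% lower in all 3 KO arrays without overlap. In whole ovaries, a change in the number of cells that carry a transcript and a change in its level per cell cannot be told apart.

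Without KO replicate 1 the Msx1 difference was 0.64 (limma adjusted p = 0.0782), so the call ended while the direction held. The call also ended without WT replicate 1 (0.81, limma adjusted p = 0.0994), WT replicate 2 (0.72, 0.136) or WT replicate 3 (0.86, 0.0749), and it held without KO replicate 2 (0.91, 0.0235) or KO replicate 3 (0.84, 0.0422). The probe set behind it, 1448601_s_at, is of a kind that can match several transcripts. A further Msx1 probe set, 1417127_at, read 10.7, 8.30 and 9.60 units in KO, against 6.56, 7.52 and 7.45 in WT. Those values do not overlap either, but all 6 lie under the level for testing.

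**Figure D1:**
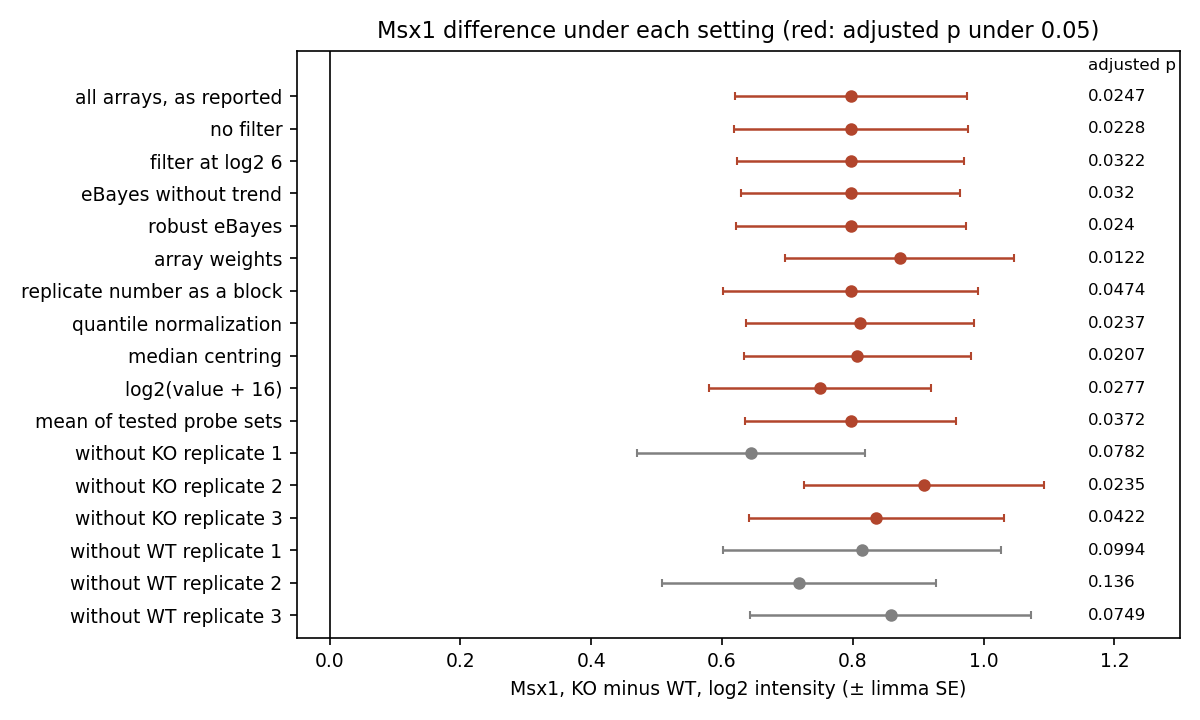
Difference of Msx1 between KO and WT ovaries (log2 intensity, points, with limma's standard error as bars) under each processing setting, down the page, with its adjusted p at the right. The points lie between 0.64 and 0.91, and the adjusted p exceeds 0.05 without KO replicate 1 and without each WT replicate in turn.

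Msx2, the paralog of Msx1 and also a BMP-induced homeodomain repressor, could not be tested, since its brighter probe set reached the level on 1 of the 6 arrays. It read 36.7, 14.3 and 12.4 units in KO, against 9.81, 10.1 and 8.50 in WT. The groups did not overlap, and KO replicate 1 carried most of the distance. The log2 difference of 0.98 became 0.49 without that array. When the filter on dim probe sets was dropped, Msx2 differed by 0.98 ± 0.34 (limma SE) with a limma adjusted p of 0.120. Its other probe set was at the floor, at 2.76 to 3.49 units on all arrays.

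The DNA just before the start sites of the Msx pair is shown because Msx1 was the gene that changed and Msx2 is its paralog, whose groups did not overlap either. The 250 bases before each start are given 5′ to 3′ on the gene's strand, from RefSeq promoter windows of GRCm38.p6, at chr5:37824586-37824835 on the minus strand for Msx1 and at chr13:53472781-53473030 on the minus strand for Msx2.
Msx1: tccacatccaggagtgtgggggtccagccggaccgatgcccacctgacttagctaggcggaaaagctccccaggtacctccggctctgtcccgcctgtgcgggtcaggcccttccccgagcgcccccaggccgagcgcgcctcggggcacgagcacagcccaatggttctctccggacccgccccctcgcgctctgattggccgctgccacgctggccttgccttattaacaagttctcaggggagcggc
Msx2: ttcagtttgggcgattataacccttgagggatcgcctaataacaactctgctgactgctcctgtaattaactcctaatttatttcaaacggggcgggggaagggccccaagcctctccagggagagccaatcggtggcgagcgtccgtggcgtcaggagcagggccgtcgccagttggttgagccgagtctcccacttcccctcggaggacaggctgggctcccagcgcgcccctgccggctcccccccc
Windows of 300 bases, 250 before and 50 after a start, were used for 7 of the 10 genes, 8 windows in all. Id1, Smad7 and Bambi were left out of this search. The 8 windows were searched on both strands for GGCGCC, the palindrome bound by the BMP SMADs and for GTCTAGAC, a palindrome bound by SMAD4 and SMAD3, and no matches overlapped. Neither Msx window holds either motif, which says nothing of sites farther away. The windows of 3 genes hold GGCGCC (Id2, Id4 and a second start of Gata2) and that of Smad6 holds GTCTAGAC, shown here with the motif in capitals.
Id2, chr12:25096301-25096340, minus strand: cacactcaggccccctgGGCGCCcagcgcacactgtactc
Id4, chr13:48260951-48260990, plus strand: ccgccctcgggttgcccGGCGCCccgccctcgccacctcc
Gata2, chr6:88198609-88198648, plus strand: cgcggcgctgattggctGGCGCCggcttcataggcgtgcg
Smad6, chr9:64022039-64022080, minus strand: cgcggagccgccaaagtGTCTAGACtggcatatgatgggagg
The first base of the motif lies 231 bases before the start in Id2, 148 in Id4, 38 in Gata2 and 4 in Smad6. The same Gata2 window holds a further GGCGCC, not printed, that begins at base 23 when the start is counted as base 1. Of 32851 such windows over the genome 11.9% hold GGCGCC and 0.213% hold GTCTAGAC. A match of letters is a description and not a shown binding site, and none of the 4 genes that hold one passed the test.

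Among the ID genes, Id1 had a difference as large as that of Msx1 with a wider spread. ID1 is the best known immediate target of BMP SMADs and is also abundant in endothelium. It read 263, 138 and 120 units in KO, against 64.9, 102 and 122 in WT. KO replicate 1 was high and WT replicate 1 low, and the other 4 arrays overlapped. The log2 means were 7.35 ± 0.60 in KO and 6.54 ± 0.47 in WT (SD, n = 3 each), and the difference of 0.81 ± 0.32 (limma SE, 95% interval 0.11 to 1.52) did not pass (limma adjusted p = 0.177). Without KO replicate 1 it was 0.47 (limma adjusted p = 0.404).

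Id3 read 801, 676 and 965 units in KO, against 638, 591 and 693 in WT. KO replicate 2 lay just under WT replicate 3, so the groups overlapped at that point alone. ID3 is induced along with ID1 by BMP in many cell types. Its difference of 0.33 ± 0.15 (95% interval -0.01 to 0.67) did not pass (limma adjusted p = 0.253), and at 0.34 it was nearly the same without KO replicate 1.

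Id2 and Id4 did not separate the groups. Id2 read 1500 (KO replicate 1), 1676 and 887 units in KO, against 1153, 1213 and 1483 in WT, with both the highest and the lowest array in KO. Its difference was 0.03 ± 0.22 (95% interval -0.45 to 0.52, limma adjusted p = 0.952), and a second tested probe set gave 0.12 ± 0.28. Id4, best known from neural precursors and spermatogonial stem cells, read 553, 651 and 345 units in KO, against 424, 417 and 538 in WT. KO replicate 3 was again the lowest of the 6. The difference was 0.13 ± 0.23 (95% interval -0.37 to 0.63, limma adjusted p = 0.803), and 0.02 ± 0.26 through a second tested probe set.

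**Figure D2:**
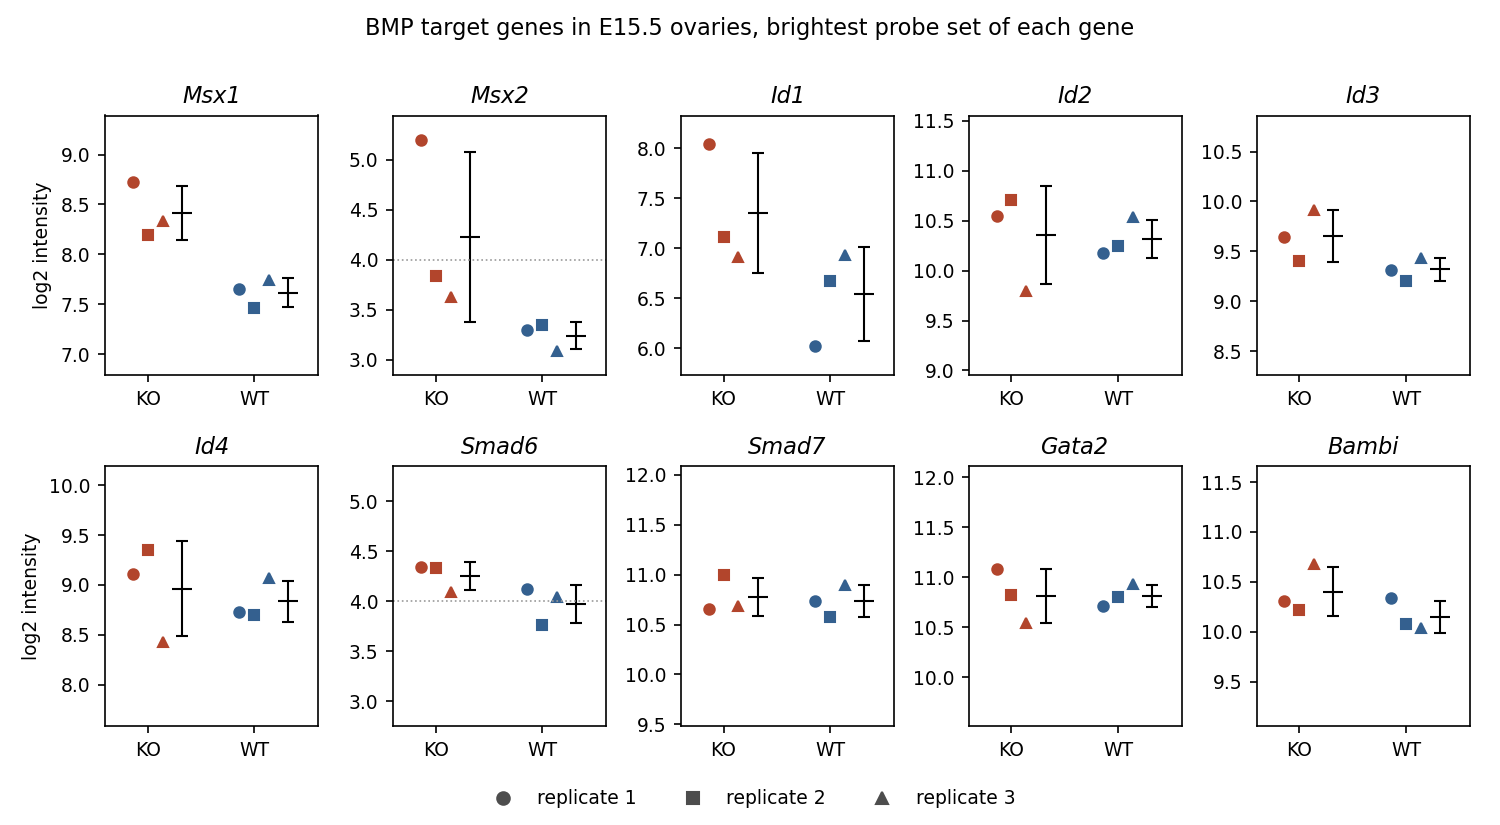
Log2 intensity of the brightest probe set of each of the 10 genes on every array, KO in red at the left and WT in blue at the right of each panel, with marker shape for the replicate number. Black bars give mean ± SD (n = 3), each vertical axis spans the same distance, and the dotted line is the level for testing. The groups are apart for Msx1 and Msx2 and overlap in the other 8 panels.

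The feedback inhibitors did not pass the test. Smad6, which blocks BMP receptors and SMAD1, was dim, at 20.3, 20.1 and 17.1 units in KO, against 17.4, 13.6 and 16.5 in WT. WT replicate 2 lay under the level for testing, and KO replicate 3 lay just under WT replicate 1. The difference of 0.28 ± 0.18 (95% interval -0.12 to 0.69) had a limma adjusted p of 0.431. Bambi, a receptor-like protein without a kinase domain that blocks signalling of the receptor complex, read 1267, 1191 and 1643 units in KO, against 1294, 1081 and 1049 in WT. KO replicate 3 alone stood above all WT arrays, and the difference of 0.25 ± 0.15 (95% interval -0.08 to 0.58) had a limma adjusted p of 0.377.

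Smad7, the inhibitor shared by the BMP and TGF-beta branches, gave opposite signs through its 2 tested probe sets. The brighter one, 1443771_x_at, of a kind prone to match unrelated transcripts, read 1616, 2041 and 1641 units in KO, against 1708, 1523 and 1908 in WT. The other, 1423389_at, read 118, 76.3 and 54.1 units in KO, against 60.8, 104 and 88.1 in WT. The groups overlapped in both. The differences were 0.04 ± 0.13 and -0.06 ± 0.30 (limma adjusted p = 0.896 and 0.934), so no direction can be given for Smad7.

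Gata2, a zinc finger factor that is expressed in germ cells of the fetal mouse ovary and lies downstream of BMP in blood development, did not separate the groups. Its brighter probe set read 2166, 1811 and 1493 units in KO, against 1682, 1783 and 1958 in WT. The WT arrays fell inside the KO range. The difference was -0.00 ± 0.14 (95% interval -0.31 to 0.31, limma adjusted p = 0.997), and the second probe set gave -0.12 ± 0.13 (limma adjusted p = 0.636).

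Of the 9 genes tested, all but Msx2, 1 rose, 0 fell and 8 did not pass, and 2 had an unadjusted p under 0.05, Msx1 and Id1. The share of all genes at an unadjusted p under 0.05 was not counted. This count and those of the later lists therefore have no background beside them. The differences of the 9 ran from -0.00 to 0.81 with a median of 0.25, beside a median of 0.02 over all 11897 genes. Msx1 alone among them had groups that did not overlap, beside 12.3% of all genes higher and 11.4% lower without overlap. By limma's adjusted p, 1.28% of all genes rose and 2.27% fell. Without KO replicate 1 the differences were 0.30 for Bambi, 0.24 for Smad6, 0.10 for Smad7, 0.05 for Id4, -0.07 for Id2 and -0.13 for Gata2, and none of these passed (limma adjusted p from 0.394 to 0.939). Through the brightest probe sets, the highest array was KO replicate 1 in 5 of the 10 genes, KO replicate 2 in 3 and KO replicate 3 in 2. The share of all genes with a KO array highest was not counted, so this is not read as a trend of the 10 genes. KO replicate 3 was also the lowest array for Id2, Id4 and Gata2, and Msx2 was untested.

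**Figure D3:**
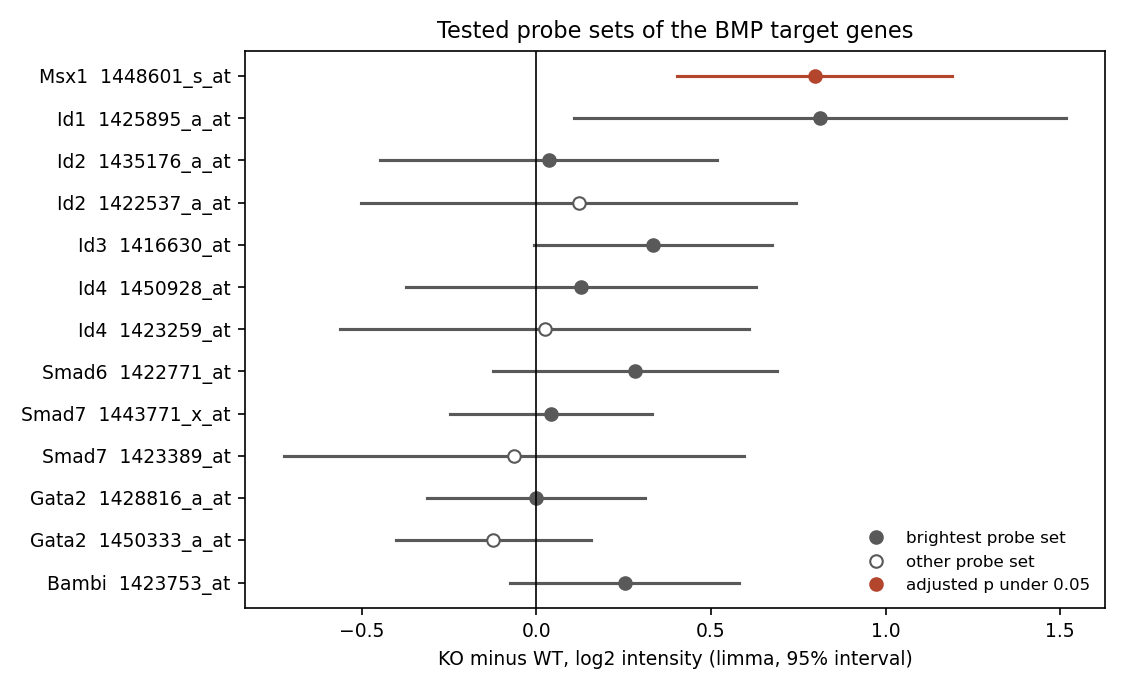
KO minus WT differences (log2 intensity, points) with limma's 95% intervals (lines) for the 13 tested probe sets of the BMP target genes, filled for the brightest probe set of a gene and open for others. Only the Msx1 interval, in red, belongs to an adjusted p under 0.05, and that of Id1 is the widest among the brightest probe sets.

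To ask whether Msx1 moved apart from the others, its log2 value was taken relative to each of the 9 other genes within every array. The ratio of Msx1 was higher in all 3 KO arrays than in any WT array against Gata2 (by 0.80), Smad7 (by 0.75), Smad6 (by 0.51) and Id3 (by 0.46). The ratio overlapped between groups against Id2 (0.76), Id4 (0.67), Bambi (0.54) and Id1 (-0.01). It overlapped against Msx2 too, with no value given, since Msx2 lay under the level on 5 of the 6 arrays. Without KO replicate 1 the differences were 0.78 against Gata2, 0.54 against Smad7, 0.41 against Smad6 and 0.31 against Id3, still without overlap, and 0.71 against Id2, 0.59 against Id4, 0.34 against Bambi and 0.18 against Id1, with overlap. For the 4 ratios without overlap the exact permutation test gave p = 0.1 (2-sided, 3 against 3), the smallest it can give, and 0.225 after adjustment over the 9 pairs. The design therefore cannot show by this test that Msx1 differed from another gene of the group. Msx1 was also the tested gene whose own groups did not overlap. Its ratio to a gene that hardly changed, such as Gata2 or Smad7, thus largely repeats its own difference and adds no support.

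The 5 genes whose log2 values followed Msx1 most closely over the 6 arrays, which fall into the KO and WT groups, were by Pearson correlation Cenpv (0.996), Cyc1 (0.994), Tesc (0.992), Plcg2 (0.991) and F11r (0.991). Tesc, the gene of the calcium-binding protein tescalcin, read log2 6.22, 5.23 and 5.30 in KO, against 3.88, 3.44 and 3.80 in WT, all under the level there. Plcg2, a phospholipase of immune receptor signalling, read log2 7.39, 6.32 and 6.51 in KO, against 5.08, 5.06 and 5.40 in WT. Because they were picked for following Msx1 on these same arrays, their order over the arrays and the distance between their groups come with the choice, and no test is given. Tesc was higher in KO by at least 1.58 on the log2 scale, the WT arrays being set to the level, and Plcg2 by 1.56 (1.23 without KO replicate 1). The difference was 0.51 for the centromere protein gene Cenpv, 0.22 for Cyc1, encoding cytochrome c1, and 0.21 for the junction protein gene F11r.

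The rest of the pathway was read from 5 lists with 59 genes. The array held 57 of them and 39 could be tested. Among these 1 rose, 1 fell and 37 did not pass. Over all genes 1.28% rose and 2.27% fell in the same test, so these counts are not read as a trend of the pathway. Of 6 tested ligands 0 passed, with 2 at an unadjusted p under 0.05 and a median difference of -0.22, and 5 others, among them Bmp15 and Gdf5, were under the level on all arrays. Bmp4, a ligand that the mouse embryo needs to form germ cells, read log2 8.37, 8.62 and 8.70 in KO, against 8.96, 8.96 and 9.18 in WT, lower on every KO array (-0.47 ± 0.15, limma SE, limma adjusted p = 0.0952). Bmp2, a ligand of the somatic cells of the fetal ovary, read log2 8.55, 8.31 and 8.27 in KO, against 8.22, 8.13 and 7.95 in WT, higher on every KO array (0.28 ± 0.15, limma adjusted p = 0.348). Bmp5 differed by -0.62 ± 0.28 with overlapping groups (limma adjusted p = 0.239), and by -0.37 without KO replicate 1 (0.506). Bmp7, a ligand best known from kidney and named after its values were seen, was not called at its brightest probe set (-0.21 ± 0.16, limma adjusted p = 0.515), while another rose by 0.81 ± 0.17 (limma adjusted p = 0.0164, and 0.0280 without KO replicate 1).

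Of 9 tested receptors and co-receptors 0 passed (median -0.20, 1 at an unadjusted p under 0.05). The type II receptor Bmpr2 came nearest, at log2 11.2, 11.3 and 11.2 in KO, against 11.5, 11.5 and 11.7 in WT (-0.33 ± 0.10, limma SE, limma adjusted p = 0.0779). The type I receptor Bmpr1a differed by -0.17 ± 0.11 and the activin receptor Acvr2b by 0.22 ± 0.18 (limma adjusted p = 0.439 and 0.532). Of 10 SMADs and modulators 0 passed (median -0.02, 1 at an unadjusted p under 0.05). Smad5, a signal-carrying SMAD, read log2 10.7, 10.6 and 10.1 in KO, against 10.7, 11.2 and 11.1 in WT (-0.56 ± 0.18, limma adjusted p = 0.106). Its other tested probe sets gave -0.18 and 0.37, so the signs disagreed. The corepressor Ski differed by -0.24 ± 0.14 and the SMAD inhibitor Tob1 by 0.24 ± 0.18 (limma adjusted p = 0.378 and 0.522), Tob1 by 0.13 without KO replicate 1 (0.774). Zeb2, a SMAD-binding repressor named after its values were seen, differed by -0.01 ± 0.21 through its brightest probe set (-0.07 without KO replicate 1), while 2 dimmer ones fell. One of them, 1456389_at, fell by 0.74 ± 0.19 (limma adjusted p = 0.0464, and 0.0439 without KO replicate 1). The other, 1422748_at, lay under the level on all KO arrays, so its fall is at least 1.58-fold (limma adjusted p = 0.0293), and that call ended without KO replicate 1 (0.0793). 1422748_at was tested only through WT, the group where it was high, so its limma p does not count as support for the fall. Of 6 secreted antagonists 0 passed (median -0.04, 1 at an unadjusted p under 0.05), with Twsg1, a BMP-binding protein, at -0.32 ± 0.11, follistatin (Fst) at 0.24 ± 0.14 and Bmper at -0.16 ± 0.13 (limma adjusted p = 0.113, 0.376 and 0.541), and Fst at 0.12 without KO replicate 1 (0.700). Nog, Chrd and Grem1 were under the level on all arrays.

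Among 8 tested further genes known to respond to BMP, Dlx3 rose and Tbx3 fell (median 0.31). Dlx3, a distal-less homeobox gene of epidermis and placenta, read log2 7.51, 5.64 and 4.64 in KO, against 3.77, 3.61 and 3.94 in WT, all of them under the level. It rose at least 3.81-fold (fitted difference 2.16 ± 0.56, limma SE, limma adjusted p = 0.0482), with KO replicate 1 far above the other KO arrays. Its probe set reached the level on KO arrays alone, so the filter admitted it only through the group where it was high. The limma p therefore does not count as support for the rise. Without WT replicate 1, 2 or 3 Dlx3 no longer passed (limma adjusted p = 0.163, 0.153 and 0.117), and without any one of the 3 KO arrays it reached the level too rarely to be tested, with a difference of 1.37 without KO replicate 1. Tbx3, a T-box repressor, read log2 9.24, 9.48 and 9.18 in KO, against 9.97, 9.71 and 9.83 in WT, and fell by 0.54 ± 0.13 (limma adjusted p = 0.0422). That call held without KO replicate 2 and ended without each of the other 5 arrays in turn (0.087 to 0.186). Zglp1, a BMP-induced factor of oogenic fate, read log2 7.13, 5.51 and 5.46 in KO, against 5.10, 5.22 and 5.24 in WT. Like Dlx3 it was highest on KO replicate 1 and did not overlap between groups (0.85 ± 0.38, limma adjusted p = 0.243). Without KO replicate 1 the Zglp1 difference was 0.30 (limma adjusted p = 0.438).

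**Figure D4:**
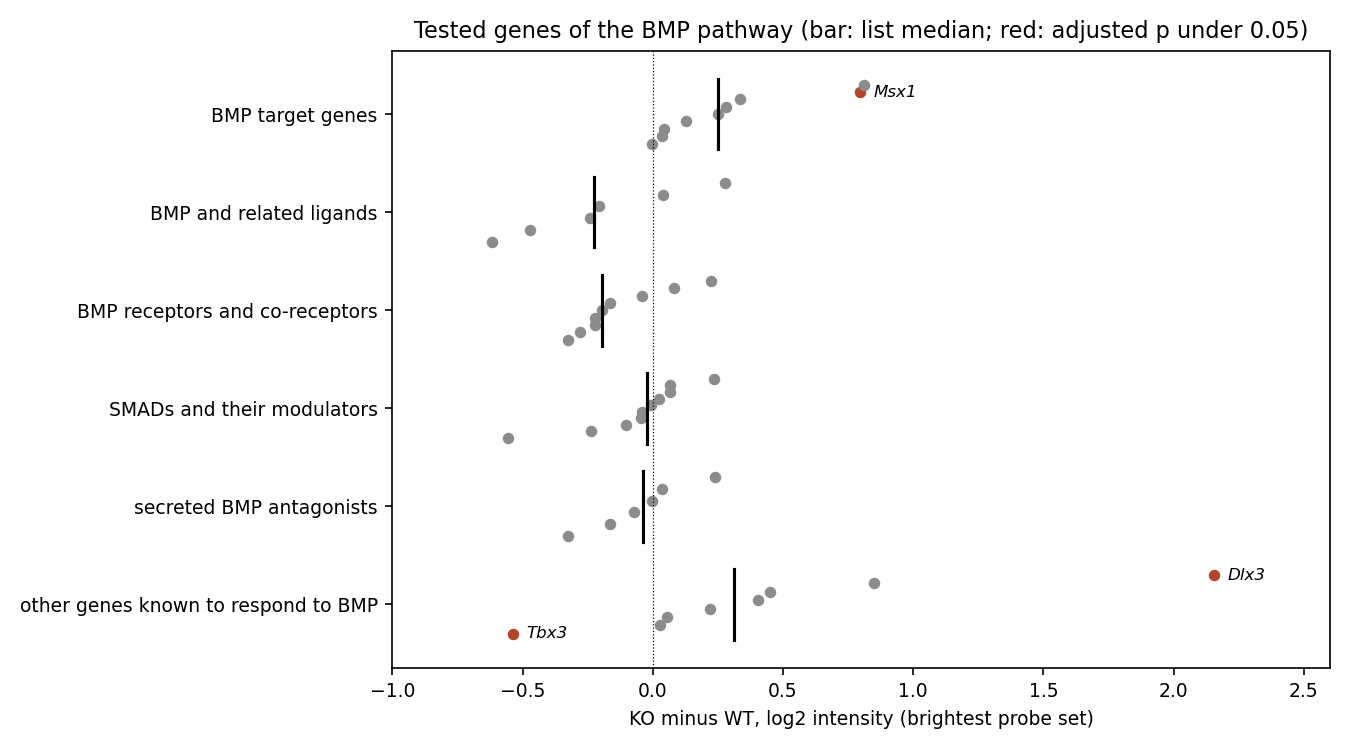
KO minus WT differences (log2 intensity) of every tested gene in the list of BMP target genes and in 5 further lists of the pathway, one point per gene through its brightest probe set, with a black bar at each list's median. Msx1 and Dlx3 lie above 0 and Tbx3 below it in red, with an adjusted p under 0.05, and the other points are grey.

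Some markers of the cell types in a fetal ovary moved between the groups as well. The summed intensity of 8 pregranulosa markers was 13451 to 14851 in KO and 12259 to 12828 in WT, with 0 of 8 past limma's test and 2 at an unadjusted p under 0.05. Of the 8, 6 had a higher mean in KO, beside 53.4% of all genes, while Foxl2 (-0.26) and Wnt4 (-0.08) had a lower one. The groups of 4 pregranulosa markers were higher in KO without overlap, beside 12.3% of all genes. Without KO replicate 1 the differences were -0.55 for Foxl2 and 0.03 for Wnt4. The summed intensity of 8 germ cell markers was 9120.0 to 14004 in KO and 8364 to 9562 in WT. All 7 tested germ cell markers had a higher mean in KO (median difference 0.48), beside 53.4% of all genes. Among them Sycp3 hardly differed (0.005, and 0.06 without KO replicate 1), and Mael differed by 0.19 (0.09 without that array). Both overlapped between groups. Of the 7, 3 were higher without overlap, beside 12.3% of all genes, and 4 had an unadjusted p under 0.05. Through the brightest probe sets Dppa3 alone rose (log2 difference 4.22, 2 of 3 WT arrays under the level, limma adjusted p = 0.00817). With those WT arrays set to the level, Dppa3 was higher in KO by at least 3.95. The filter admitted it only through KO, the group where it was high, so this limma p does not count as support for the rise. Dazl differed by 0.48 (0.28 without KO replicate 1) and was not called, while 1 other probe set of Dazl passed, its direction not given here. Without KO replicate 1 the germ cell sum was 9120.0 to 10810.2 in KO, the median difference 0.25 and the limma adjusted p of Dppa3 0.00277. The Dppa3 call ended with a robust prior (0.0625) or without WT replicate 1 (0.0578). The sum of 8 endothelium markers was 1413 to 1694 in KO and 2073 to 2380.2 in WT. Flt1 and Tek fell (by 0.88 and 0.51 on the log2 scale, limma adjusted p = 0.0184 and 0.0452), 4 of 6 tested did not pass, and the defining markers Pecam1 and Cdh5 were under the level on all arrays. Of those 4, Emcn and Kdr differed by -0.54 and -0.25. Tie1 and Esam did not fall, at 0.06 and 0.00 with overlapping groups (0.12 and 0.01 without KO replicate 1). The Tek call ended under 11 of 17 alternatives, among them without KO replicate 1 (0.116), and that of Flt1 without WT replicate 1 (0.0626) or 3 (0.112). Without KO replicate 1 Flt1 kept its call (-0.90, limma adjusted p = 0.0481). The sum of 8 stroma markers was 31935 to 33707 in KO and 36039 to 39719 in WT. Of the 8, 0 passed the test through their brightest probe sets and 4 had an unadjusted p under 0.05. Dcn, Col1a1 and Nr2f2 each had 1 other probe set past the threshold, its direction not given here. Through its brightest probe set Nr2f2 differed by -0.09, and by -0.14 without KO replicate 1. Of the 8 stroma markers, 1 had a higher mean in KO and 4 were lower without overlap, beside 11.4% of all genes. Of 8 macrophage markers 2 fell, Ptprc and Mrc1 (summed 3464 to 5515 in KO and 5328 to 6433 in WT), and of 2 tested erythroid markers 1 fell, Slc4a1 (summed 320.5 to 485 in KO and 481 to 1288 in WT over 4 genes). Of the 8 macrophage markers, 0 had a higher mean in KO and 4 were lower without overlap, beside 11.4% of all genes. The calls of Ptprc, Mrc1 and Slc4a1 (log2 differences -1.06, -0.72 and -1.44, limma adjusted p = 0.0357, 0.0358 and 0.0275) were lost in 9 of 16, 8 of 17 and 5 of 17 alternatives, and all 3 were lost without KO replicate 1 (0.0795, 0.0881 and 0.0871). Of 7 surface epithelium and 5 mesonephros markers 0 passed, with 3 and 0 at an unadjusted p under 0.05, and their summed intensities overlapped. The surface epithelium sums did not overlap without KO replicate 1, at 13559 to 15149 in KO and 12409 to 12763 in WT. The part of these shifts in the values of the BMP target genes was not tested.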

How the data were processed

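Total RNA of E15.5 ovaries was hybridised to Affymetrix arrays after biotin labelling, per the labels' protocols. The deposited intensities are linear values per probe set, made by the authors with GCRMA (version not stated), per the submitters' processing notes. They carry no detection calls, and the number of arrays limits the precision.

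The intensities were taken to log2, and 64 control probe sets were left out of 45101. A probe set was tested when log2 was at least 4 on at least 3 of the 6 arrays (22040 probe sets, 11897 genes through the brightest). Gene symbols came from the platform annotation, checked by gene identifier against RefSeq (34754 of 34958 single-gene probe sets matched, 0 symbols changed). The test of KO against WT was 2-sided and used limma 3.58.1 under R 4.3.3 (lmFit with a genotype term, trended eBayes), with Benjamini-Hochberg adjustment over all tested probe sets and a threshold of 0.05. It was first tested on simulated data. With every array of KO or of WT under log2 4, a fold is a bound against that level. Sequences are RefSeq's.

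Named are the 10 members, the 3 genes of lowest p in each of 5 pathway lists, the 5 genes most like Msx1, and markers past the threshold in 8 lists. Some further germ cell, pregranulosa, endothelium and stroma markers are named to show how the rest of their lists behaved. Members and lists were chosen with earlier results of these data known. Alternatives covered the filter, variance prior, array weights, replicate block, normalization, pseudocount, probe set choice, threshold and leaving out each array. Probe sets that name several genes were not used. No 2 arrays held identical values.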

Additional observations from a re-analysis of the deposited data

How the results depend on the processing

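The direction of Msx1, Id1, Id3, Smad6, Bambi and Msx2 held under every alternative that gave a value for them. Leaving out an array, the Msx1 difference ran from 0.64 to 0.91, and the count of BMP target genes that rose was 0 to 1. The count was 0 without probe sets ending in _s_at, _x_at or _a_at, since the brighter Msx1 probe set is one of them. With the replicate number as a block Msx1 kept its call (0.80, limma adjusted p = 0.0474). The same-numbered arrays did not deviate together (correlations of -0.17, -0.25 and -0.17), so the numbers are not taken as pairs. In no setting did a BMP target gene fall. The sign of Gata2 turned with array weights (0.052), quantile normalization (0.0094) and median centring (0.0093), and leaving out an array it ran from -0.13 to 0.13. Smad7 turned without the multi-transcript probe sets (-0.064) and with averaged probe sets (-0.011), and Bmpr1a with averaged probe sets (0.018). Leaving out an array, Id2 ran from -0.15 to 0.31, Id4 from -0.063 to 0.39 and Smad7 from -0.067 to 0.12.

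Among pathway genes, 2 rose with no filter, and 0 rose and 0 fell with the stricter filter, without the trend and with averaged probe sets. With log2(value + 16) 0 rose, with the block or median centring 0 fell, and at a threshold of 0.1, 3 fell. Leaving out an array, 0 rose and 0 to 1 fell. Over the array 321 probe sets rose and 1134 fell. The counts were 1325 and 1957 with no filter, 140 and 504 with the stricter filter, and 107 and 235 genes with averaged probe sets. With the block 207 rose, at a threshold of 0.1, 608 rose, and leaving out an array 116 to 310 rose and 389 to 1089 fell. The number of probe sets tested differed between the filters, and the cause of these shifts was not tested.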
